A study of Homo sapiens with 2 samples.

Results

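The GATA family factors measured here were GATA2, GATA3, GATA4 and GATA6 with the antisense transcript GATA3-AS1, 5 genes of the 33538 in the deposited tables, chosen by name. They were followed in single-cell libraries of human embryonic stem cells of the H1 line that had received BMP4 at 50 ng/ml in mTeSR1 medium for 48 hours, a treatment that starts differentiation towards several early lineages. There was 1 library of wild-type H1 (WT) and 1 of a GATA3 knockout (GATA3 KO), so every difference below is a difference between 2 libraries, with no replicate check and no test. The knockout line was 1 clone, KO-GATA3-06, made from an H1 derivative that carries a doxycycline-inducible Cas9, so genotype, clone and cassette cannot be told apart. After cells with more than 7500 detected genes or more than 25% mitochondrial UMIs were left out, 2519 of 3802 WT cells and 4450 of 6221 GATA3 KO cells remained. Levels are given as UMIs per 1000000 UMIs (CPM) of these cells, and log2 ratios are GATA3 KO over WT on the log2(CPM + 1) scale, which understates differences of low genes. Intervals are 95% intervals, exact Poisson for levels and exact Clopper-Pearson for shares. Those of ratios come from the exact binomial split of the counts, those of differences combine both Clopper-Pearson intervals, and all of them cover counting error only.

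GATA factors are zinc-finger transcription factors that bind a short GATA-containing DNA motif. GATA2 and GATA3 are known for their part in trophectoderm and amnion, in blood (GATA2) and in T cells (GATA3), and BMP signalling raises both in pluripotent cells. GATA4 and GATA6 are known for their part in primitive endoderm, definitive endoderm and heart mesoderm. GATA3-AS1 is a long non-coding RNA read from the opposite strand next to the start of GATA3.

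The start regions of 3 of the genes are shown because GATA6 had the lowest and GATA2 the highest log2 ratio of the 5 genes, and because 1 of the 6 RefSeq start windows of GATA3 overlaps those of GATA3-AS1. The other GATA3 windows, among them the one at the gene's annotated start, are not printed. In GENCODE v44 on GRCh38, GATA2 (ENSG00000179348) lies on chr3:128479427-128493201 on the minus strand, GATA3 (ENSG00000107485) on chr10:8045378-8075198 on the plus strand, and GATA6 (ENSG00000141448) on chr18:22169589-22202528 on the plus strand. GATA3-AS1 (ENSG00000197308) lies on chr10:8050450-8053484 on the minus strand, within the span of GATA3. Each window holds 300 bases and ends 50 bases after an annotated RefSeq start (GRCh38.p14). It is given 5′ to 3′ on the gene's strand, and capitals mark GGCGCC, a palindrome.
GATA3, chr10:8053391-8053690, plus strand: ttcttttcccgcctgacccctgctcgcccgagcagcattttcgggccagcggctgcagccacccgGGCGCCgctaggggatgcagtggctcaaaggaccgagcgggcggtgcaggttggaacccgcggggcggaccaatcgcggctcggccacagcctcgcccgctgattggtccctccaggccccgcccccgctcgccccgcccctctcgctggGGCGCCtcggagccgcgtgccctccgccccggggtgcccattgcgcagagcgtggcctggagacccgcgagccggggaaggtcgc
GATA6, chr18:22169339-22169638, plus strand: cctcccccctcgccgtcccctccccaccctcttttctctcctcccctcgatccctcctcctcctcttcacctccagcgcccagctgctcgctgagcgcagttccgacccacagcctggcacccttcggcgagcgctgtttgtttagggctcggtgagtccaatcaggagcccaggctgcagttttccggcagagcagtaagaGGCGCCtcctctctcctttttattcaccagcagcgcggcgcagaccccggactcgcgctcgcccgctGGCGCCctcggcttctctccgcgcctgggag
GATA2, upstream start, chr3:128493152-128493451, minus strand: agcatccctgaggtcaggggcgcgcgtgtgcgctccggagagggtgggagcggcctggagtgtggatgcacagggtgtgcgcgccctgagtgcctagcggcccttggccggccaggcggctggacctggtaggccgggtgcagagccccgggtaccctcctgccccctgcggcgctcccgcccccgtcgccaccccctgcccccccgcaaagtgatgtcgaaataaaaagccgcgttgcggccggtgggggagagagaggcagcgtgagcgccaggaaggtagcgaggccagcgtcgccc
GATA2, downstream start, chr3:128488481-128488780, minus strand: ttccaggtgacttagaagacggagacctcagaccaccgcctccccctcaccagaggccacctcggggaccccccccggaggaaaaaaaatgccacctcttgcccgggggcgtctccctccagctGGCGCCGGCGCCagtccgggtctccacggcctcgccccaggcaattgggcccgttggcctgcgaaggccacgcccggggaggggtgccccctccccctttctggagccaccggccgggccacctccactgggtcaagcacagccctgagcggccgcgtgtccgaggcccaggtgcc
The printed GATA3 window overlaps the 3 RefSeq start windows of GATA3-AS1 by 256, 282 and 291 bases, so GATA3-AS1 and the GATA3 transcripts of this start run from nearly the same DNA in opposite directions. None of the 5 other GATA3 windows overlaps them. The GATA motif, searched as AGATAA or AGATAG or TGATAA or TGATAG on both strands, was in none of the 14 start windows of GATA2, GATA3, GATA6 and their antisense transcripts, against 8769 of 35116 windows (24.97%) of all genes. GGCGCC was in 2 copies in the printed GATA3 and GATA6 windows and in the downstream GATA2 window, and in none at the upstream GATA2 start, against 19.2% of all windows with at least 1 copy. The other GATA3 windows held 0, 1 or 2 copies of GGCGCC, and the GATA2-AS1 and GATA6-AS1 windows held 0. The 14 windows were 54.3% to 76.3% G or C, some of them overlapped, and the background was not matched on base content. A match or its lack is a description of these letters in these windows only.

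The kept cells held 99587274 UMIs in WT and 175285931 in GATA3 KO, with medians of 44415 and 43132 UMIs per cell. The 5 pluripotency markers were detected in both libraries. The 6 markers of blood and endothelium, where GATA2 and GATA3 are also known, summed to 0.884 and 1.22 CPM, with 1 of the 6 at 0 in WT, so the markers of those cells were at or near 0. The primitive streak list summed to 253 CPM in WT and 12.3 in GATA3 KO, and that difference in the makeup of the libraries moves with every GATA4 and GATA6 value for whole libraries below. Its part in those values is addressed only by the matched cells further on. In summed counts, fewer cells of a type and less RNA per cell cannot be told apart.

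Past 2-fold below means a log2 ratio beyond 1 or -1 on the log2(CPM + 1) scale. Between the libraries, 279 of 13523 genes with at least 1 CPM (2.06%) were past 2-fold higher in GATA3 KO and 307 (2.27%) were past 2-fold lower. Of the 5 GATA genes, 1 (GATA2) was past 2-fold higher and 2 (GATA4 and GATA6) were past 2-fold lower. The median log2 ratio of all these genes was 0.07.

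GATA6 showed the widest gap of the 5. It stood at 7.78 CPM (775 UMIs) in WT and at 0.131 CPM (23 UMIs) in GATA3 KO, a log2 ratio of -2.96 (-3.03 to -2.86) and a level 59.3-fold lower (39.2 to 94.1). Its divergent antisense neighbour GATA6-AS1 (ENSG00000266010, chr18:22164886-22169878, minus strand), whose annotated span overlaps the start of GATA6, stood at 2.09 CPM (208 UMIs) and 0.0228 CPM (4 UMIs), 91.5-fold lower. Both transcripts of this start region were thus nearly missing from the GATA3 KO library.

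GATA4 (ENSG00000136574) was also lower in GATA3 KO. Its level was 2.17 CPM (216 UMIs) in WT and 0.240 CPM (42 UMIs) in GATA3 KO, 9.05-fold lower, with a log2 ratio of -1.35 (-1.48 to -1.21). The intervals of the 2 libraries lay far apart, as for GATA6.

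GATA2 went the other way. It stood at 2.02 CPM (201 UMIs) in WT and 7.75 CPM (1358 UMIs) in GATA3 KO, 3.84-fold higher (3.31 to 4.47), a log2 ratio of 1.54 (1.38 to 1.69). TFAP2A, found in many GATA2-positive cells, was also higher in GATA3 KO (16.7 and 37.7 CPM, 2.26-fold), and 3.41% of WT and 12.1% of GATA3 KO cells had TFAP2A without the streak, SOX17, HAND1 or ISL1 transcripts used below. That makeup moves with the GATA2 value, which is read again in matched cells. GATA2-AS1, the antisense transcript that starts within GATA2, stood at 0.753 and 1.88 CPM, a log2 ratio of 0.71.

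GATA3 itself differed little in summed counts. The level was 12.7 CPM (1261 UMIs) in WT and 10.9 CPM (1918 UMIs) in GATA3 KO, a log2 ratio of -0.19 (-0.29 to -0.10). The edit lies in coding exons upstream of the 3′ end that these libraries read, so a GATA3 transcript can be counted whatever its reading frame, and its level does not check the labels. GATA3-AS1 stood at 2.02 CPM (201 UMIs) in WT and 3.45 CPM (605 UMIs) in GATA3 KO, a log2 ratio of 0.56 (0.40 to 0.72), so it was higher where GATA3 was slightly lower. With all deposited cells the log2 ratios were -0.73 for GATA3 and 0.18 for GATA3-AS1. The 3′ kit marks strand, but whether the counting used it was not given in the sources used here. The GATA3-AS1 span (chr10:8050450-8053484) does not reach the annotated 3′ end of GATA3 (chr10:8075198). Whether reads in the overlap of GATA3 and GATA3-AS1 were split between them was not tested.

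**Figure D1:**
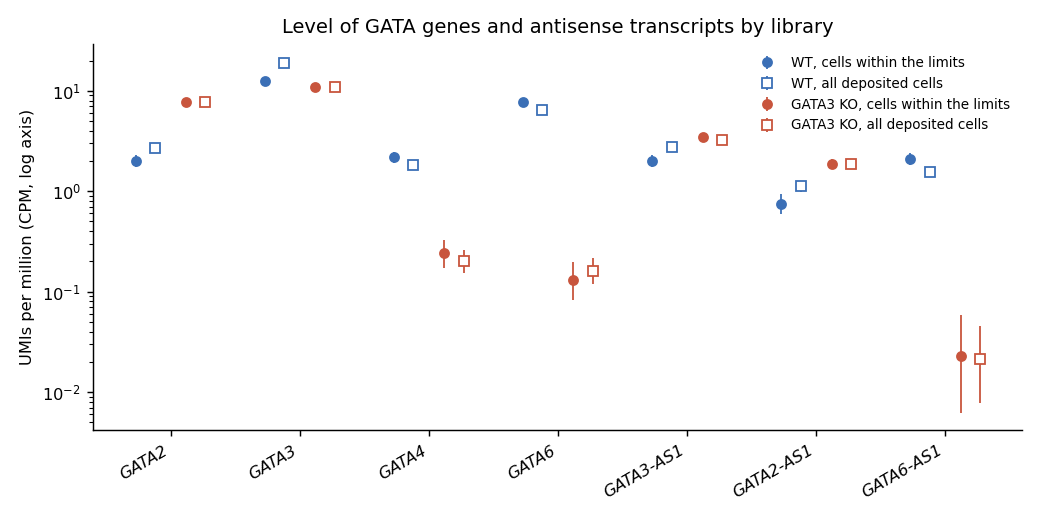
Level of each GATA gene and antisense transcript in the WT and GATA3 KO libraries, in CPM on a log axis, with exact 95% Poisson intervals, for the kept cells (filled circles) and all deposited cells (open squares). In the kept cells GATA2 is higher in GATA3 KO (7.75 against 2.02 CPM), GATA4 (0.240 against 2.17) and GATA6 (0.131 against 7.78) are lower, and the GATA3 points (10.9 and 12.7) lie close together.

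The UMIs were spread over the cells in different ways. In WT, GATA6 was found in 205 cells (8.14%), with 1 UMI in 79, 2 in 27, 3 to 9 in 80 and 10 or more in 19, up to 21 UMIs. In GATA3 KO it was found in 20 cells (0.449%), with 1 UMI in 17 and 2 in 3. The cells with 3 or more GATA6 UMIs had no counterpart in the GATA3 KO library.

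GATA4 never reached such counts per cell. In WT it was found in 196 cells (7.78%), nearly as many as GATA6, but 177 of them had 1 UMI and the highest had 3. In GATA3 KO it was found in 38 cells (0.854%), with at most 2 UMIs. Thus 88 cells held 50% of the GATA4 UMIs of WT, against 37 cells for GATA6.

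For GATA2 the larger number of UMIs in GATA3 KO came with more cells and with more UMIs in a cell. It was found in 149 WT cells (5.92%) and 702 GATA3 KO cells (15.8%), and cells with 3 to 9 UMIs numbered 11 in WT (0.437%) and 166 in GATA3 KO (3.73%). GATA3-AS1 was found in 154 WT cells (6.11%) and 363 GATA3 KO cells (8.16%), with 9 (0.357%) and 56 cells (1.26%) at 3 to 9 UMIs.

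GATA3 was found in a larger share of WT cells, 535 (21.2%) against 648 (14.6%), while cells with 3 to 9 UMIs were 142 in WT (5.64%) and 242 in GATA3 KO (5.44%) and cells with 10 or more were 11 (0.437%) and 22 (0.494%). Cells with only 1 GATA3 UMI were 284 in WT (11.3%) and 272 in GATA3 KO (6.11%). Among the kept cells, the libraries thus differed in the share with few GATA3 UMIs and were close in the share with many. The cells with more than 7500 detected genes, left out here, held 66.2% of all GATA3 UMIs in WT and 37.4% in GATA3 KO. Of the UMIs of all genes they held 98123763 of 200569649 in WT and 103653958 of 284280464 in GATA3 KO.

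**Figure D2:**
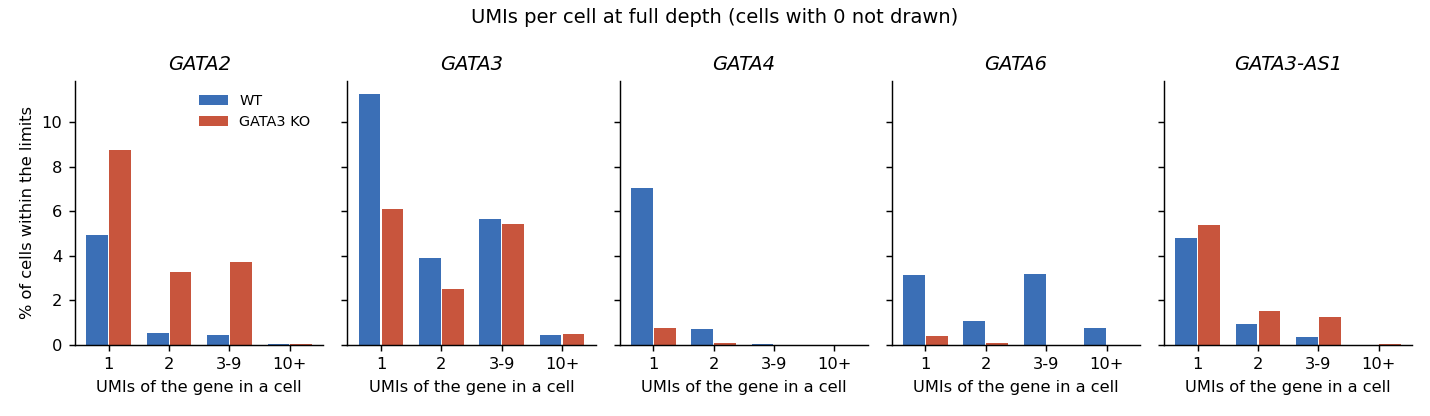
Share of kept cells, in percent, with 1, 2, 3 to 9 and 10 or more UMIs of each gene, in WT and GATA3 KO at full depth. GATA6 has 19 WT cells with 10 or more UMIs and no GATA3 KO cell with more than 2, and GATA2 has 166 GATA3 KO cells and 11 WT cells with 3 to 9 UMIs.

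For shares of cells, each cell was thinned to 10000 UMIs, which left 2173 WT and 4038 GATA3 KO cells. GATA6 was then found in 96 WT cells (4.42%) and 7 GATA3 KO cells (0.173%), a difference of -4.24 percentage points (-5.20 to -3.40), and GATA6-AS1 in 39 WT cells and in 0 of 4038 GATA3 KO cells, where the limit of 3 counts is a share of 0.0743% of cells with a UMI. GATA4 was found in 50 (2.30%) and 9 cells (0.223%). GATA2 was found in 41 (1.89%) and 247 cells (6.12%), a difference of 4.23 points (3.25 to 5.18), and GATA3-AS1 in 39 (1.79%) and 124 cells (3.07%). These 4 genes kept the direction of their CPM values.

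GATA3 did not give the same direction at every threshold. With at least 1 UMI the share was 9.80% in WT (213 cells) and 7.08% in GATA3 KO (286 cells), a difference of -2.72 points (-4.26 to -1.24). With at least 2 UMIs it was 1.84% in WT (40 cells) and 2.95% in GATA3 KO (119 cells), so the difference was 1.11 points in the other direction. At 20000 UMIs, 57 of 1971 WT cells had 2 GATA3 UMIs and 43 had 3 or more, against 104 and 87 of 3661 GATA3 KO cells. At that depth these shares were close in the 2 libraries.

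Cells were next placed in 6 groups by lineage transcripts found at 10000 UMIs, in this order: SOX17, which marks endoderm; HAND1 or ISL1, found in amnion and mesoderm; TBXT, MIXL1 or EOMES, which mark the primitive streak; TFAP2A, an early surface ectoderm and amnion factor; SOX2, which marks pluripotent and neural cells; and none of these. No GATA gene was used to set the groups. They are ranges of detection and not cell types. The groups held 85, 123, 888, 74, 803 and 200 WT cells and 6, 228, 228, 488, 2947 and 141 GATA3 KO cells, and their median UMIs lay between 41447 and 48937.

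GATA6 in WT followed SOX17 and the streak genes. It stood at 46.5 CPM in the SOX17 group, 16.4 CPM in the HAND1 or ISL1 group, 12.1 CPM in the streak group, 0.943 CPM in the TFAP2A group and 0.139 CPM in the SOX2 group. The streak group held 65.1% of the WT GATA6 UMIs and the SOX17 group 23.1%. At 10000 UMIs GATA6 was found in 0.125% of the WT SOX2 cells, so its share differed between groups by far more than their depths did.

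In the same groups of GATA3 KO, GATA6 was low. It stood at 0.387 CPM in the streak group, a log2 ratio of -3.24, and at 1.14 CPM in the HAND1 or ISL1 group, a log2 ratio of -3.02. The HAND1 or ISL1 groups differed in streak RNA, with the streak list at 268 CPM in WT and 7.34 CPM in GATA3 KO. They are therefore not like cells for the genes that go with the streak. The 6 GATA3 KO cells with SOX17 held no GATA6 UMI, too few cells to set a level. GATA6-AS1 stood at 2.73 CPM in WT streak cells and 4.93 CPM in WT HAND1 or ISL1 cells, with no UMI in either group of GATA3 KO.

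GATA4 kept closer levels within the streak group, at 3.67 CPM in WT and 2.13 CPM in GATA3 KO, a log2 ratio of -0.58. In the HAND1 or ISL1 group, whose streak RNA differed as given above, it stood at 2.57 and 0.381 CPM. The streak group held 71.0% of the WT GATA4 UMIs, and the number of cells in that group differed between the libraries (40.9% of WT cells and 5.65% of GATA3 KO cells).

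GATA2 was higher in GATA3 KO in each of the 6 groups. It stood at 12.4 and 37.7 CPM in the HAND1 or ISL1 group (log2 ratio 1.53), 6.60 and 22.8 CPM in the TFAP2A group (1.65), 1.35 and 7.85 CPM in the streak group (1.91) and 0.860 and 2.53 CPM in the SOX2 group (0.92). In the SOX17 group, with 6 GATA3 KO cells, it stood at 3.15 and 19.0 CPM, and in cells with none of these genes at 1.17 and 8.40 CPM. In WT 32.6% of its UMIs were in the HAND1 or ISL1 group and 29.0% in the streak group, and in GATA3 KO 36.2% were in the TFAP2A group, 29.7% in the HAND1 or ISL1 group and 23.9% in the SOX2 group. At 10000 UMIs GATA2 was found in 0.996% of WT and 2.14% of GATA3 KO SOX2 cells. Empty droplets were not analysed here, so how much of this is free RNA was not tested. The amnion and trophectoderm list also summed higher in GATA3 KO than in WT. It was 629 against 467 CPM in the HAND1 or ISL1 group and 214 against 116 CPM in the TFAP2A group. In the streak group it was 73.1 against 36.4 CPM and in cells with none 72.4 against 25.9 CPM. The gap was small in the SOX2 group (21.7 against 20.4 CPM) and the SOX17 group (171 against 161 CPM).

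GATA3 was highest in the HAND1 or ISL1 group of each library, at 77.0 CPM in WT and 84.0 CPM in GATA3 KO (log2 ratio 0.12, -0.05 to 0.30), a difference within counting error. With all deposited cells the log2 ratio in that group was -0.41 and the ratio in the TFAP2A group also turned, to -0.17. The HAND1 or ISL1 cells, 5.66% of WT and 5.65% of GATA3 KO, held 31.8% and 46.6% of the GATA3 UMIs. The larger streak group of WT held more, 37.8%, against 4.87% in GATA3 KO. The TFAP2A group held 6.36% in WT and 33.1% in GATA3 KO. In the streak group GATA3 stood at 11.2 and 8.91 CPM, in the TFAP2A group at 24.5 and 29.7 CPM, and in the SOX2 group at 3.05 and 1.55 CPM (log2 ratio -0.67). GATA3-AS1 was also highest there, with 13.0 and 26.4 CPM in the HAND1 or ISL1 group (log2 ratio 0.97), 4.40 and 8.81 CPM in the TFAP2A group and 1.69 and 2.23 CPM in the streak group.

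**Figure D3:**
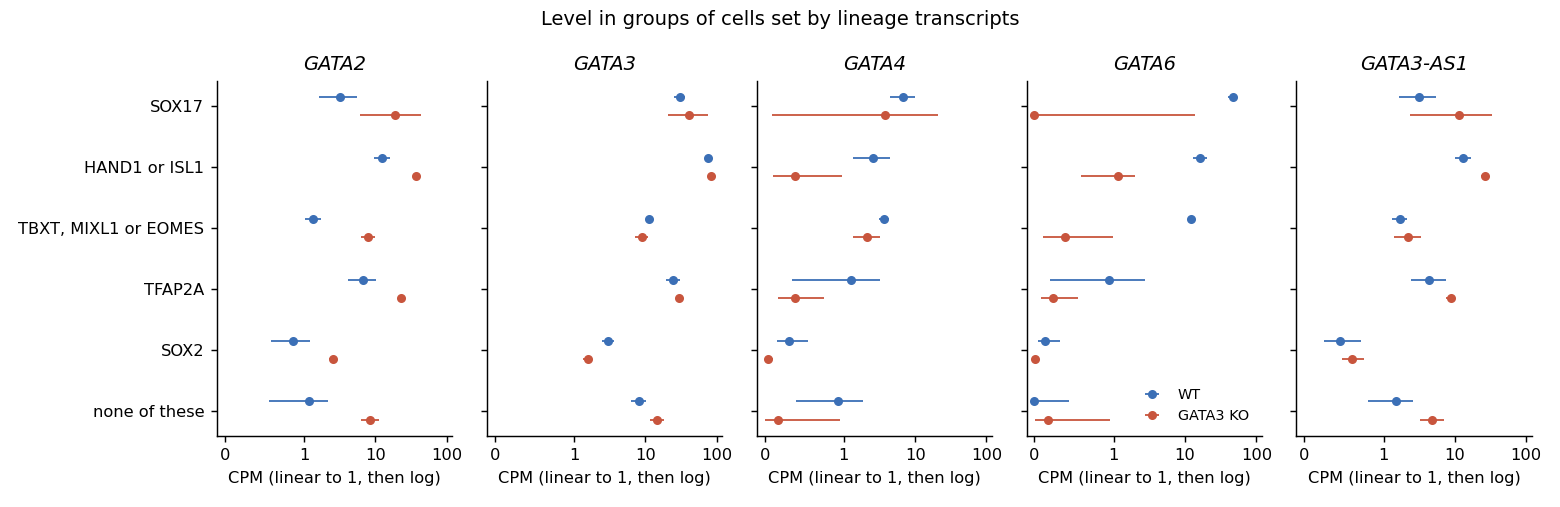
Level of each gene in 6 groups of cells set by lineage transcripts, in CPM on an axis that is linear to 1 and then logarithmic, with exact 95% Poisson intervals, for WT and GATA3 KO. GATA2 lies to the right in every group of GATA3 KO, GATA3 overlaps in the HAND1 or ISL1 group (77.0 and 84.0 CPM), and GATA6 lies to the left in GATA3 KO streak cells (0.387 against 12.1 CPM).

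Streak cells of the 2 libraries differed in how much streak RNA they held. The streak list summed to 498 CPM in the WT streak group and 135 CPM in that of GATA3 KO. The GATA genes were therefore also read in cells matched on the number of TBXT, MIXL1 and EOMES UMIs at 10000 UMIs, a comparison added after the values above were seen.

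At 1 streak UMI GATA6 stood at 0.805 CPM in 303 WT cells and 0.280 CPM in 161 GATA3 KO cells, both under 1 CPM, and the interval of the log2 ratio spanned 0 (-0.90 to 0.27). At 3 to 9 streak UMIs it stood at 11.0 CPM in 400 WT cells and 0.903 CPM (2 UMIs) in 45 GATA3 KO cells, a log2 ratio of -2.66 (-3.45 to -1.47). At 3 or more the levels were 28.1 CPM in 547 WT cells and 1.30 CPM (3 UMIs) in 47 GATA3 KO cells, a log2 ratio of -3.66 (-4.52 to -2.59). Matching on streak UMIs thus left GATA6 lower in the cells richest in streak transcripts, though the matched sets still differed in streak level, 503 against 345 CPM at 3 to 9 UMIs and 712 against 367 CPM at 3 or more. Of the 737 GATA6 UMIs of WT cells with 3 or more streak UMIs, 525 were in the 147 cells with 10 or more (75.6 CPM), a range that held 2 GATA3 KO cells with 1 GATA6 UMI.

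GATA6-AS1 had 204 UMIs (7.78 CPM) in the WT cells with 3 or more streak UMIs and no UMI in the 47 GATA3 KO cells, where 3 counts would be 1.30 CPM. In the cells with 1 or 2 streak UMIs it had no UMI in either library.

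GATA4 gave closer values than GATA6 in the matched cells richest in streak UMIs. At 3 to 9 streak UMIs it stood at 4.67 CPM in WT and 4.51 CPM (10 UMIs) in GATA3 KO, a log2 ratio of -0.04 (-0.89 to 0.76), and at 1 streak UMI at 2.12 and 1.68 CPM. At 2 streak UMIs it stood at 3.01 CPM in WT and 1.27 CPM (2 UMIs) in GATA3 KO, a log2 ratio of -0.82 (-1.89 to 0.60). At 3 or more it was 5.34 and 4.34 CPM, a log2 ratio of -0.25 (-1.07 to 0.54). A difference in GATA4 was not detectable at this depth in matched cells, and every one of these intervals ran from lower to higher than WT.

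GATA2 was higher in GATA3 KO at 1 streak UMI (2.64 and 10.4 CPM), at 2 (2.26 and 8.91 CPM) and at 3 or more (1.49 and 3.91 CPM). By value it was lowest in both libraries where streak UMIs were most. Amnion and trophectoderm transcripts were not matched in these sets.

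Matching on TFAP2A UMIs gave the same direction for GATA2 at low counts. With 1 TFAP2A UMI GATA2 stood at 5.32 CPM in 178 WT cells and 19.4 CPM in 362 GATA3 KO cells (log2 ratio 1.69, 1.28 to 2.11), with 2 at 10.3 and 29.0 CPM (1.42, 0.86 to 2.01), and with 3 or more at 27.3 CPM in 23 WT cells and 39.7 CPM in 201 GATA3 KO cells (0.52, -0.03 to 1.12). In the last of these the interval spanned no difference. TFAP2A itself was higher in GATA3 KO within each set, at 92.6 against 59.2 CPM, 183 against 112 CPM and 288 against 215 CPM, so the matching was not complete. The sets were chosen by TFAP2A alone, so cells with streak, SOX17, HAND1 or ISL1 transcripts were among them. The share of such cells was not matched. With 1 TFAP2A UMI GATA6 stood at 7.09 CPM in WT and 0.128 CPM in GATA3 KO.

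GATA3 was lower by value in GATA3 KO in the matched cells. With 1 streak UMI it stood at 20.0 CPM in WT and 11.1 CPM in GATA3 KO (log2 ratio -0.80, -1.15 to -0.46), with 2 at 18.7 and 13.4 CPM (-0.45, -1.14 to 0.18) and with 3 or more at 9.88 and 7.38 CPM (-0.38, -1.06 to 0.26). The last pair of intervals spanned 0. By TFAP2A UMIs it stood at 33.6 and 24.8 CPM with 1 TFAP2A UMI (log2 ratio -0.42, -0.65 to -0.20), 58.2 and 49.3 CPM with 2 (-0.23, -0.51 to 0.05) and 113 and 82.5 CPM with 3 or more (-0.45, -0.74 to -0.15). Of these the middle interval spanned 0. By value this was the other direction to the TFAP2A group, which left out cells with streak, SOX17, HAND1 or ISL1 transcripts. GATA3-AS1 was higher with 1 UMI (4.69 and 8.04 CPM) and 2 UMIs (7.79 and 14.6 CPM) but stood at 29.3 and 23.9 CPM with 3 or more, where the interval of its log2 ratio ran from -0.83 to 0.31.

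**Figure D4:**
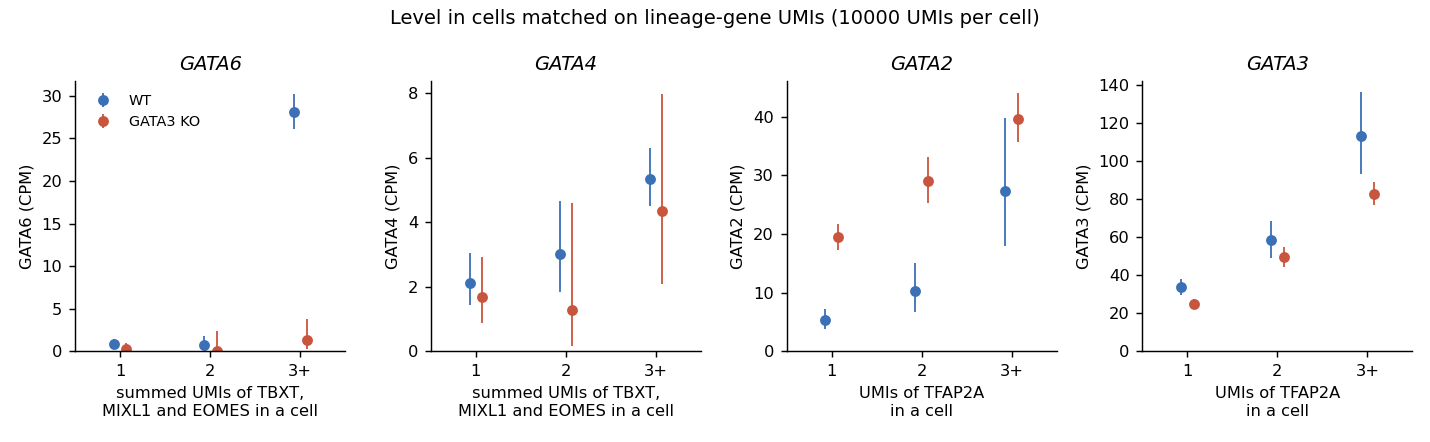
Level of GATA genes in CPM in cells matched on streak UMIs (TBXT, MIXL1 and EOMES) or on TFAP2A UMIs at 10000 UMIs, for WT and GATA3 KO, with exact 95% Poisson intervals. GATA6 separates at 3 or more streak UMIs (28.1 against 1.30 CPM) while GATA4 does not (5.34 against 4.34), and GATA2 separates at 1 and 2 TFAP2A UMIs (5.32 against 19.4 and 10.3 against 29.0 CPM).

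GATA2 was found in a larger share of cells with GATA3 than of cells without it. At 10000 UMIs, GATA2 was found in 14 of 213 GATA3-positive WT cells (6.57%) against 27 of 1960 GATA3-negative cells (1.38%), a difference of 5.20 points that was 2.70 points in a second draw of the thinning. It was found in 78 of 286 GATA3-positive GATA3 KO cells (27.3%) against 169 of 3752 (4.50%). GATA3-AS1 was found in 6.10% of GATA3-positive WT cells against 1.33%, and in 17.5% of GATA3-positive GATA3 KO cells against 1.97%. Positive and negative cells had median UMIs between 42296 and 48990, so depth differed little.

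GATA6 was not detectably more frequent in WT cells with GATA3. It was found in 6.57% of GATA3-positive and 4.18% of GATA3-negative cells, a difference whose interval (-0.70 to 6.68 points) spanned 0, and GATA2 was found in 2.08% of GATA6-positive and 1.88% of GATA6-negative cells. GATA4 was found in 11 of 96 GATA6-positive cells (11.5%) against 39 of 2077 GATA6-negative cells (1.88%), a difference of 9.58 points (3.94 to 17.7). A second draw of the thinning gave 4.26 points, so its size depended on the draw while its direction did not.

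Cells with GATA6 were rich in streak genes, and cells with GATA2 or GATA3 in amnion genes, as read from lineage genes that were not used to choose the cells. Among genes with at least 1 CPM in WT, 1.49% were past 2-fold higher and 3.57% past 2-fold lower in GATA6-positive than in GATA6-negative cells. All 5 streak genes (TBXT, MIXL1, EOMES, MESP1 and GSC) were past 2-fold higher, with a median log2 ratio of 2.96, as were all 3 endoderm and anterior streak genes with at least 1 CPM. Of the 8 amnion and trophectoderm genes 1 was higher and 2 were lower, and none of the 7 BMP pathway genes passed 2-fold. Of the 5 listed mesoderm genes 2 had at least 1 CPM, and 1 of those was past 2-fold higher.

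In shares of cells, MIXL1, a homeobox factor of the streak, was found in 94.8% of GATA6-positive and 29.2% of GATA6-negative WT cells, and MESP1, a factor of early mesoderm, in 52.1% and 3.85%. CER1, a secreted Nodal and BMP inhibitor, was found in 77.1% and 7.70%, and GSC, a homeobox factor of the anterior streak, in 44.8% and 4.53%. PDGFRA, a growth factor receptor of mesoderm, was found in 16.7% and 1.06%, and SOX2 in 22.9% and 55.9%. At 20000 UMIs all 50 WT cells with 3 or more GATA6 UMIs had at least 1 of TBXT, MIXL1 and EOMES. NANOG, a pluripotency factor, was found in 68.0%, 60.3%, 38.5% and 20.0% of WT cells with 0, 1, 2 and 3 or more GATA6 UMIs. GATA4-positive WT cells resembled them in streak genes and SOX2, with GSC in 15 of 50 cells against 5.75%, SOX2 in 28.0% against 55.0% and at least 1 of TBXT, MIXL1 and EOMES in 88.0% against 45.0%. For the endoderm and anterior streak genes the median log2 ratio was 0.78 in GATA4-positive cells, against 2.66 in GATA6-positive cells.

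In GATA3-positive cells 1.44% of genes were past 2-fold higher and 0.542% lower in WT, and 3.27% and 4.33% in GATA3 KO. Of the 8 measured amnion and trophectoderm genes 7 were past 2-fold higher in each library, and of the 7 BMP genes 3 were higher in WT and all 7 in GATA3 KO. No streak gene passed 2-fold in either. Of the endoderm and anterior streak genes SOX17 was past 2-fold higher in WT (1 of 3), and HHEX was past 2-fold lower in GATA3 KO (1 of 2). TFAP2A was found in 36.2% of GATA3-positive and 8.98% of GATA3-negative WT cells, and in 74.8% and 13.7% in GATA3 KO. BMP4, the ligand that was also added to the medium, was found in 41.8% against 15.7% in WT and in 81.5% against 17.9% in GATA3 KO. TBX3, a T-box factor of amnion and trophectoderm, was found in 47.2% against 3.86% in GATA3 KO.

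In GATA2-positive cells 1.8% of genes were past 2-fold higher and 2.89% lower in WT, and 2.19% and 1.21% in GATA3 KO. Of the 8 amnion and trophectoderm genes 7 were past 2-fold higher in WT and 6 in GATA3 KO, and of the 7 BMP genes 2 and 6. Of the 3 endoderm and anterior streak genes with at least 1 CPM in WT, SOX17 and HHEX were past 2-fold higher and CER1 was past 2-fold lower in the 41 GATA2-positive cells, and none of 2 passed in GATA3 KO. TFAP2A was found in 31.7% against 11.3% of WT cells and in 65.6% against 14.9% of GATA3 KO cells. SOX2 was found in 43.9% against 54.6% in WT, where the interval of the difference spanned 0, and in 52.2% against 88.8% in GATA3 KO.

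The lineage genes were graded with the number of GATA3 UMIs. At 20000 UMIs, cells with 0, 1, 2 and 3 or more GATA3 UMIs numbered 1690, 181, 57 and 43 in WT and 3258, 212, 104 and 87 in GATA3 KO. TFAP2A was found in 13.6%, 40.9%, 63.2% and 76.7% of them in WT and in 17.2%, 71.2%, 92.3% and 98.9% in GATA3 KO. HAND1 or ISL1 was found in 4.26%, 22.1%, 28.1% and 65.1% in WT and in 3.41%, 29.2%, 54.8% and 71.3% in GATA3 KO. The 2 libraries thus shared the order of these classes. SOX2 ran the other way, at 71.1%, 35.4%, 35.1% and 20.9% in WT and 96.1%, 65.1%, 44.2% and 29.9% in GATA3 KO. TBXT, MIXL1 or EOMES had no steady order with GATA3, at 52.2%, 69.6%, 68.4% and 53.5% in WT and 8.69%, 20.3%, 22.1% and 8.05% in GATA3 KO.

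GATA2 and GATA3-AS1 were also found in a larger share of cells at 3 or more GATA3 UMIs than at 0. GATA2 was found in 2.49%, 4.97%, 7.02% and 30.2% of these WT cells and in 6.23%, 35.4%, 50.0% and 57.5% of the GATA3 KO cells. GATA3-AS1 was found in 1.78%, 9.94%, 10.5% and 18.6% in WT and in 2.70%, 20.8%, 20.2% and 40.2% in GATA3 KO. GATA6 showed no such order, at 7.16%, 7.73%, 7.02% and 0 of 43 cells in WT, where 3 counts of 43 would be 6.98%.

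**Figure D5:**
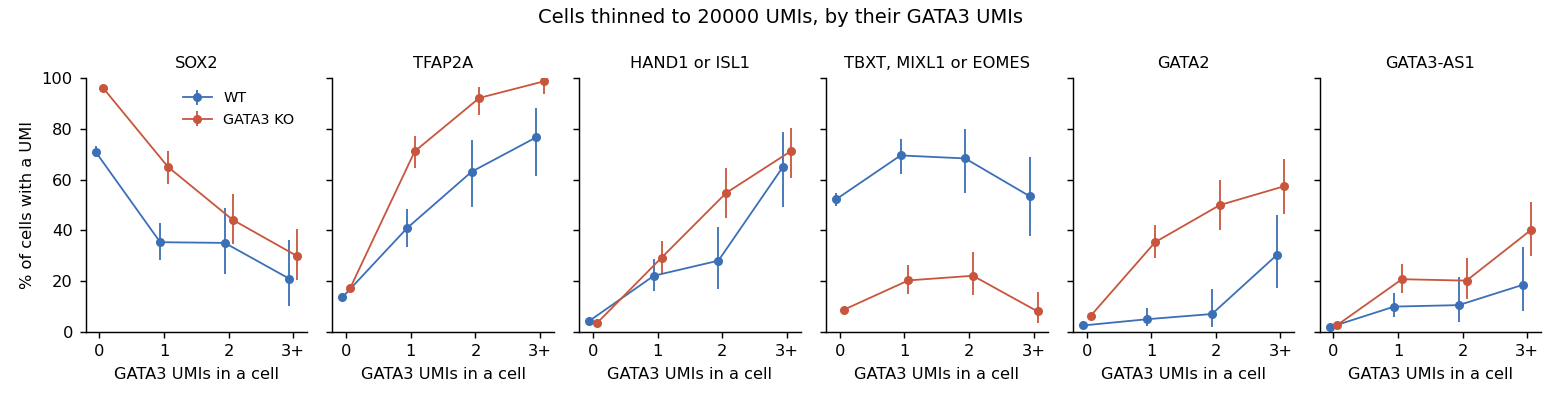
Share of cells, in percent, with a lineage gene or another GATA gene, against the number of GATA3 UMIs in the cell after thinning to 20000 UMIs, for WT and GATA3 KO, with exact 95% Clopper-Pearson intervals. TFAP2A and GATA2 are found in more cells and SOX2 in fewer as GATA3 UMIs go from 0 to 3 or more, with GATA2 at 30.2% of WT and 57.5% of GATA3 KO cells in the last class.

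Likeness of pattern was read by Pearson's r of log(1 + count) across the kept cells thinned to 10000 UMIs. The 12646 genes with at least 1 CPM in each library were compared. The rule named genes for each GATA gene found in at least 1% of these cells of each library. Named first are the genes whose pattern over cells was most like GATA3. They were CLDN10 (r of 0.34 in WT and 0.54 in GATA3 KO), HPGD (0.36 and 0.52), RHOBTB3 (0.34 and 0.53), HAPLN1 (0.33 and 0.52), FN1 (0.29 and 0.50) and BAMBI (0.38 and 0.43). For GATA2 they included BAMBI (0.15 and 0.32), a BMP pseudoreceptor, TFAP2A (0.12 and 0.32) and MSX1 (0.18 and 0.26), a homeobox target of BMP. For GATA3-AS1 they included CLDN10 (0.18 and 0.32) and MSX1 (0.20 and 0.29). GATA3 and GATA2 had r of 0.14 and 0.25, GATA3 and GATA3-AS1 0.15 and 0.24, and GATA3 and GATA6 0.02 and 0.09. Cells of a library share its depth and lineage makeup, and the low values are no finding in counts this sparse.

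GATA6 and GATA4 were found in under 1% of GATA3 KO cells, so the rule gave no genes for them, and those given here for WT were chosen after their values were seen. GATA6 was most like CER1 (r of 0.59), DKK1 (0.51) and MESP1 (0.51), inhibitors of BMP or WNT signalling and a mesoderm factor. GATA4 had GSC (0.15) and GATA6 (0.15) among its most alike genes, with values too low to read.

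Among the relatives and cofactors of the family, GATA6-AS1 differed most between the libraries. GATA factors work with FOG proteins, the LMO2 and LDB1 complex and the NuRD subunits GATAD2A and GATAD2B. Of the 13 genes listed, 9 had at least 1 CPM in either library, none was past 2-fold higher on the log2(CPM + 1) scale and 1 (GATA6-AS1) was past 2-fold lower, with a median log2 ratio of -0.04. ZFPM1, which encodes FOG1, stood at 23.9 CPM in WT and 23.1 in GATA3 KO, and GATAD2A at 58.5 and 53.6. GATA5 stood at 0.562 and 1.42 CPM (log2 ratio 0.63), which in plain CPM is 2.53-fold (1.88 to 3.44) higher, and GATA2-AS1 was 2.49-fold (1.93 to 3.25) higher in plain CPM. GATA1 had 0 UMIs in WT and 3 in GATA3 KO, so it was at the floor in both.

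The cells left out for more than 7500 detected genes were deep and held many of the UMIs of all genes. There were 1012 such cells in WT and 1265 in GATA3 KO, and they held 66.2% and 37.4% of all GATA3 UMIs. Of the UMIs of all genes they held 98123763 of 200569649 in WT and 103653958 of 284280464 in GATA3 KO. In WT they held 40.2% of the GATA4 UMIs and 40.2% of the GATA6 UMIs. GATA3 stood there at 25.7 CPM (24.7 to 26.7) in WT and 11.3 CPM (10.7 to 12.0) in GATA3 KO, so the ratio of GATA3 between the libraries depended on the gene limit. GATA2 stood at 3.45 and 7.65 CPM, GATA4 at 1.49 and 0.135 CPM and GATA6 at 5.31 and 0.222 CPM in these cells, with the direction of the kept cells. GATA3-AS1 stood at 3.55 CPM (3.18 to 3.94) in WT and 3.09 CPM (2.76 to 3.44) in GATA3 KO, the opposite direction to the kept cells, with intervals that overlapped. Doublets were not called, and how many of these cells hold more than 1 cell was not tested.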

How the data were processed

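Single-cell 3′ v3 libraries (10x Genomics) of WT and GATA3 KO cells were each run once. The authors deposited raw UMI counts per gene and cell barcode, made with Cell Ranger 3.0.2 against GRCh38, with no limit on genes or mitochondrial share. The treatment text of the WT sample says 1 hour of BMP4, but its title and duration say 48 hours, which was used. Groups came from the labels.

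From the counts, cells with more than 7500 genes or more than 25% mitochondrial UMIs were left out, following the study's methods, and UMIs were summed per library (CPM, pseudocount 1). For shares, cells were thinned to 10000 UMIs, which left out 346 WT and 412 GATA3 KO cells as too shallow. No doublet caller was run; leaving out the 5% of cells with the most UMIs was an alternative. The 2 libraries shared 8 cell barcodes, which were kept as different cells. Genes at or over 1 CPM in either library (for cell groups, in that library) were compared, and a call means past 2-fold. With 1 library per group no test was made.

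The named genes were the 5 GATA genes, 13 relatives and cofactors, 8 lists of lineage, BMP and other-cell markers, and for each GATA gene found in at least 1% of thinned cells of both libraries the 6 genes with the highest mean r (at least 0.1 in both). The members and lists were chosen with earlier results of these data known. Interval coverage was checked only on simulated Poisson and binomial counts, the model that the intervals assume, with no spread between cells or libraries. Python 3.11.15, numpy 2.4.6, scipy 1.17.1, pandas 2.3.3, matplotlib 3.10.9 and, for scaling factors only, R 4.3.3 with edgeR 4.0.16 and DESeq2 1.42.0 were used. Alternatives were another pseudocount, other cell limits, depths, thresholds, scalings and per-cell means. UMIs counted at the 3′ end carry no length correction.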

Additional observations from a re-analysis of the deposited data

How the results depend on the processing

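No paired analysis was possible because each group had 1 library. Leaving out a replicate was not possible for the same reason. Of the values that answer a comparison, 73 stayed close under an alternative and 39 moved by more than counting error, among them 1 whose own interval spanned 0 and whose sign changed (GATA6 with GATA3 in WT). A further 1, whose interval did not span 0, reversed. The cause was not tested. With a pseudocount of 0.1 CPM the log2 ratio was 1.89 for GATA2, -2.74 for GATA4, -5.09 for GATA6 and 0.75 for GATA3-AS1, and 544 genes were past 2-fold higher and 540 lower in GATA3 KO, since low genes then count more. With all deposited cells it was 1.23 for GATA2, -0.73 for GATA3, -2.68 for GATA6 and 0.18 for GATA3-AS1, and without the limit on detected genes 1.22, -0.73, -2.70 and 0.19. As a mean of per-cell CPM it was 1.37 for GATA2, -0.35 for GATA3 and 0.20 for GATA3-AS1. TMM and median-of-ratios scaling, the mitochondrial limit and leaving out the 5% of cells with the most UMIs turned no log2 ratio of the 5 genes.

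In percentage points of cells, GATA3 KO minus WT, the difference in detection at 20000 UMIs was 6.93 for GATA2, -3.41 for GATA4 and -6.75 for GATA6, and without thinning 9.86 for GATA2, -6.68 for GATA3, -6.93 for GATA4 and -7.69 for GATA6. With all deposited cells it was -4.32 for GATA3. Asking for at least 2 UMIs gave 1.03 for GATA2, -0.046 for GATA4, -1.89 for GATA6 and 0.159 for GATA3-AS1, and 1.11 for GATA3, the reversal. Co-detection with GATA3 (GATA3-positive minus GATA3-negative cells) at 20000 UMIs was -0.754 for GATA6 in WT, 9.61 (WT) and 22.1 (GATA3 KO) for GATA3-AS1 and 37.7 for GATA2 in GATA3 KO. Without thinning it was 12.2 (WT) and 50.4 (GATA3 KO) for GATA2 and 14.5 (WT) and 36.9 (GATA3 KO) for GATA3-AS1, and GATA4 in GATA6-positive minus GATA6-negative WT cells was 21.8. In a second draw of the thinning GATA6 with GATA3 in GATA3 KO was 0.286, GATA2 with GATA3 in WT 2.70 and GATA4 with GATA6 in WT 4.26. The comparison of cells matched on streak or TFAP2A UMIs was chosen after seeing the data. The number of GATA6 and GATA4 UMIs in GATA3 KO (23 and 42) limits every value that splits those cells, and depth per cell limits shares of cells near 1 UMI.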
